A study of Mus musculus with 10 samples.

Results

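Doxycycline-induced mouse embryonic fibroblasts that had divided 2 times on average in 96 h were compared with induced fibroblasts of the same culture conditions that had not divided on average. The comparison rests on 4 of the 10 Affymetrix arrays of the study, 2 arrays per cohort, chosen by their titles and paired by replicate number. The cells of both cohorts were secondary, inducible MEFs of a 129/SvJ x C57/B6 hybrid strain, which carry doxycycline-inducible copies of Pou5f1, Sox2, Klf4 and Myc, and both received 15% FBS with doxycycline, labelled as 2 ug/ul. The remaining arrays were 2 of an induced cohort with an average of 1 division, 2 of an induced cohort with 3 or more divisions, and 2 of uninduced cells of the same line held in 0.5% FBS for 96 h. The cohorts of 0, 1 and 2 divisions form a later set of 6 arrays, and the cohort of 3 or more divisions and the control an earlier set of 4 arrays. The labels do not say by what means cells were assigned to cohorts. They call the later arrays only replicates, so whether these are separate cultures or technical repeats is not known. Arrays of one replicate number departed from their groups together, also between the sets (Pearson's r of 0.433 to 0.846 over the 10 group pairs). The source of that shared departure was not tested.

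The 4 factors together turn fibroblasts toward pluripotency over several rounds of division. In the first days of that process fibroblasts are known to lose mesenchymal and contractile gene expression and to gain epithelial adhesion molecules and keratins, a change called the mesenchymal-to-epithelial transition, before genes of the pluripotency network are switched on. Cells of one induced culture divide at different rates, and comparing cohorts by division number asks how far these early changes go along with divisions when the time of induction is the same.

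The values were linear intensities per probe set, analysed on the log2 scale after quantile normalization, so a difference of 1 is a 2-fold change. A probe set was called where limma's test, with the replicate number as a block in a fit to all 10 arrays, gave p under 0.05 after Benjamini-Hochberg adjustment over the 34945 probe sets that belong to 1 gene. Each gene was read by its probe set with the highest mean. Dim probe sets have compressed differences on this scale, and without detection calls it is not known which lay above background. In bulk RNA, fewer cells of a type and less RNA per cell cannot be told apart.

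Both cohorts carried the markers of fibroblasts. The 10 fibroblast markers, among them collagen genes, Vim and Fn1, had a summed linear intensity of 106983 and 116090 on the arrays of 2 divisions, and 112046 and 110177 on those of 0 divisions, and 0 of the 10 were called. Very bright genes, such as Col3a1 (14.54 and 14.43 after 2 divisions) and Vim (14.40 and 14.37), weigh most in this sum. The less bright Pdgfra had 10.45 and 10.34 after 2 divisions, and 10.79 and 9.07 after 0 divisions. The probe sets of Pou5f1, Sox2, Klf4 and Myc were not called, with differences from -0.03 for Klf4 to 0.25 for Sox2, and whether they also read the transgene transcripts was not tested. Pou5f1 lay at 6.41 and 5.54 at 2 divisions, and at 6.12 and 5.39 at 0 divisions, against 3.92 and 3.61 in the uninduced control. Myc was also lower in the control (7.30 and 8.59), against 9.66 and 9.80 at 2 divisions, and 9.38 and 9.82 at 0 divisions. Klf4 was higher in the control (10.35 and 10.62), against 9.60 and 10.14 at 2 divisions, and 9.78 and 10.01 at 0 divisions. Sox2 was dim and overlapped the control (4.10 and 3.55), with 4.10 and 3.74 at 2 divisions, and 3.74 and 3.61 at 0 divisions. The deposited arrays had medians of 31.42 to 33.95, and the Actb control probe sets, a measure of RNA quality, had a 3'-minus-5' log2 difference of 0.42 and 0.49 at 2 divisions, and 0.33 and 0.27 at 0 divisions. That measure therefore moved with the cohorts, and its part in the results was not tested.

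After 2 divisions 134 genes were higher and 65 genes were lower than after 0 divisions, of 18193 genes measured. These counts are 0.737% and 0.357% of all genes, 1.09% together, and 127 of the 199 changes were at least 2-fold. The higher genes included epithelial and surface genes such as Mal, Krt19, Msln and Lgr6, the detoxifying enzymes Aldh3a1 and Ces1f, and the matrix proteases Mmp13 and Mmp3. The lower genes included C1qtnf3, Myh2, Npr3, Prss35 and Lpl, with genes of the actin cytoskeleton such as Nexn and Mylk. Over probe sets, 342 of 34945 were called (0.979%), 205 higher (0.587%) and 137 lower (0.392%), while 4391 had an unadjusted p under 0.05.

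**Figure D1:**
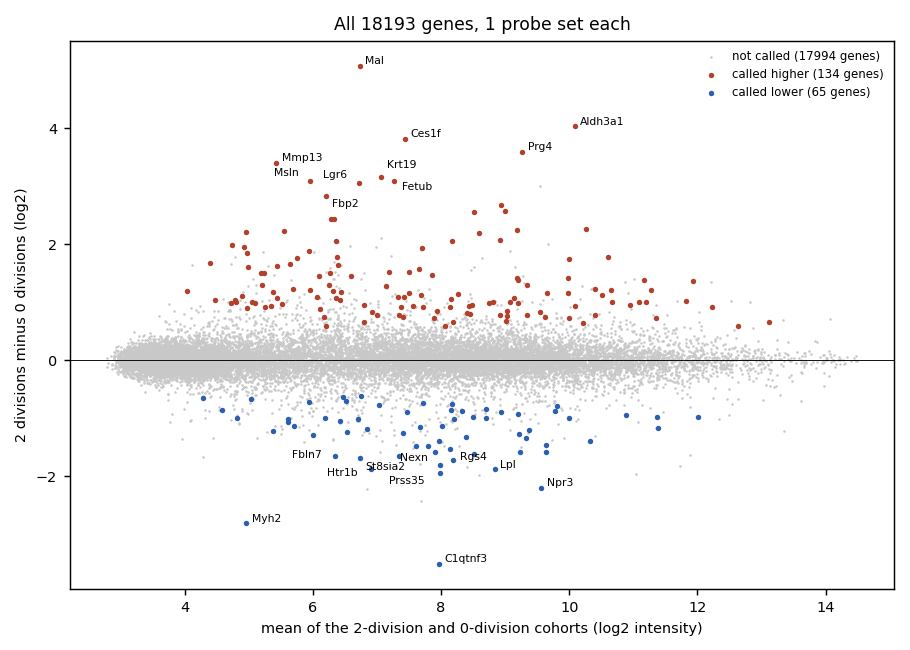
The difference between 2 and 0 divisions (log2, vertical axis) against the mean log2 intensity of both cohorts (horizontal axis) for 18193 genes, 1 point per gene, with the 134 genes called higher in red, the 65 called lower in blue and the others in grey. The 10 largest rises and 10 largest falls are named, from Mal at 5.08 to C1qtnf3 at -3.51.

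These calls depended on the pairing and on single arrays. Without the replicate block 16 probe sets of 10 genes were called (0.055% of all genes), all 16 among the 342. Those 10 genes were Mal, Mmp13, Krt19, Fbp2 and Krt8, and, outside the rule for named genes, Ifi202b, Ceacam1, Ovgp1, Mndal and Rdh10. Leaving out replicate 1 of the 0-division cohort left 0 probe sets called, and leaving out its replicate 2 left 1. Without replicate 1 of the 2-division cohort 24 were called, and without its replicate 2, 408. Each of these fits has fewer arrays and 3 residual degrees of freedom, against 4 in the full fit. None of the 199 genes was called in all 4 of these fits, and 82 were called in none of them. The fit to the 6 arrays of the later set, with the block, called 263 probe sets, 191 of them among the 342, and 171 genes, 116 of them among the 199. Of the 38 named genes that were called 7 lost the call in that fit, among them Pcolce2 and St8sia2 with adjusted p of 0.0505 and 0.0647.

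Among the genes that rose, Mal, a proteolipid of membrane transport in epithelia and myelin, had the largest change. Mal lay at 9.99 and 8.55 after 2 divisions, and at 3.91 and 4.47 after 0 divisions. The cohorts were far apart, with a difference of 5.08 ± 0.49 (SE), or 33.8-fold, at an adjusted p of 0.00818. The middle cohort, with 6.38 and 7.65, lay between them on both arrays.

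Enzymes and secreted proteins followed. Aldh3a1, an aldehyde dehydrogenase best known from the cornea, had 12.54 and 11.65 after 2 divisions, and 8.41 and 7.72 after 0 divisions, a rise of 4.03 ± 0.52 (adjusted p = 0.0168). Ces1f, a carboxylesterase, had 9.65 and 9.03 after 2 divisions, and 4.76 and 6.30 after 0 divisions (3.81 ± 0.54, adjusted p = 0.0195). Prg4, which encodes lubricin, the lubricating proteoglycan of joint surfaces, had 11.67 and 10.46 after 2 divisions, and 7.89 and 7.06 after 0 divisions (3.59 ± 0.28, adjusted p = 0.00576). In each of these 3 genes the lower array of 2 divisions lay more than 2 log2 units above the higher array of 0 divisions. Fetub, a plasma protease inhibitor of the fetuin family, lay at 8.74 and 8.89 after 2 divisions, against 5.02 and 6.45 after 0 divisions (3.08 ± 0.45, adjusted p = 0.0234). Fbp2, the muscle form of the gluconeogenic enzyme fructose-bisphosphatase, lay at 7.98 and 7.27 after 2 divisions, against 4.89 and 4.70 after 0 divisions (2.83 ± 0.23, adjusted p = 0.00707).

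A pair of surface proteins rose by about as much. Msln, the mesothelial surface glycoprotein mesothelin, had 8.23 and 6.76 after 2 divisions, and 4.75 and 4.07 after 0 divisions (3.08 ± 0.50, adjusted p = 0.0339). Lgr6, a receptor for R-spondins that marks stem cells of the skin, had 8.89 and 7.60 after 2 divisions, and 4.74 and 5.65 after 0 divisions (3.05 ± 0.49, adjusted p = 0.0325). In the fit to the 6 later arrays Msln and Lgr6 lost the call (adjusted p = 0.0727 and 0.0766). For both genes replicate 1 gave the larger step. This held for most of the calls: the difference within the replicate 1 pair was larger in size than that within the replicate 2 pair for 94 of the 134 rises and for 52 of the 65 falls.

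**Figure D2:**
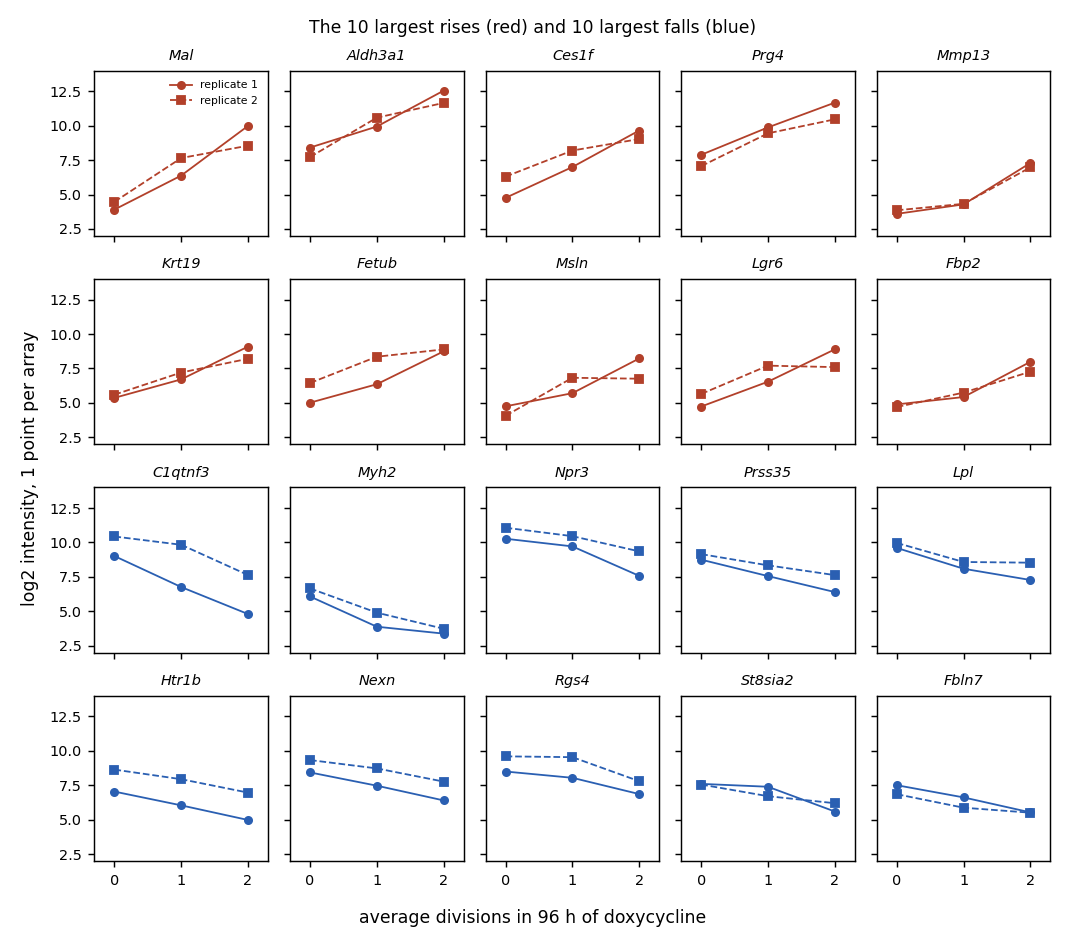
Log2 intensity (vertical axis, the same in all panels) against the average number of divisions, 0, 1 or 2 (horizontal axis), for the 10 largest rises in red and the 10 largest falls in blue, 1 point per array. Circles joined by solid lines are replicate 1 and squares joined by dashed lines replicate 2, and every line of a rise ends above its start and every line of a fall below it.

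Keratins and junction genes rose in part. Of the 6 keratins of simple epithelia 2 were called, both higher, against 0.737% of all genes. Krt19 had 9.09 and 8.21 after 2 divisions, and 5.37 and 5.60 after 0 divisions (3.17 ± 0.29, adjusted p = 0.00818). Krt8 had 7.98 and 7.03 after 2 divisions, and 5.21 and 4.92 after 0 divisions (2.44 ± 0.22, adjusted p = 0.00818). Both stood apart by more than 2-fold on all 4 arrays and were called with and without the block. Krt18, the usual filament partner of Krt8, was not called, with 3.82 and 3.50 after 2 divisions, and 3.55 and 3.65 after 0 divisions. The other 3 simple keratins, Krt7, Krt20 and Krt23, had differences from -0.16 to 0.05.

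Of 33 epithelial junction genes and regulators 3 were called, all higher, against 0.737% of all genes, and the median difference of the list was 0.07. Dsp, the desmosomal plaque protein desmoplakin, had 10.01 and 9.57 after 2 divisions, and 6.67 and 7.80 after 0 divisions (2.55 ± 0.40, adjusted p = 0.0289). Cdh1, the adhesion molecule E-cadherin, had 6.78 and 5.35 after 2 divisions, and 3.64 and 4.06 after 0 divisions (2.22 ± 0.38, adjusted p = 0.039). Pkp1, the desmosomal plakophilin, had 8.87 and 8.46 after 2 divisions, and 6.45 and 7.03 after 0 divisions (1.93 ± 0.26, adjusted p = 0.0177). In the fit with the block to the 6 later arrays 0 of the 33 were called, with adjusted p of 0.0704 for Dsp, 0.0761 for Cdh1 and 0.0507 for Pkp1. In all 3 genes the cohorts did not overlap, which was so in the upward direction for 12 of the 33 members and for 20.2% of all genes. Epcam, another epithelial adhesion molecule, had 6.37 and 6.30 after 2 divisions, and 6.26 and 5.86 after 0 divisions (adjusted p = 0.419). This probe set was as high in the control, at 6.39 and 6.11, and had 6.56 and 6.16 after 3 or more divisions. The other, dimmer probe set of Epcam had a difference of 0.34 ± 0.21 (adjusted p = 0.585). The other members of the list ranged from -0.68 for Pkp2, a plakophilin, to 1.06 for Perp, a desmosomal protein, without a call.

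Markers of keratinocytes, an epithelial cell type the cultures could hold, rose in part as well. Their summed linear intensity over 24 measured genes was 3931 and 1701 after 2 divisions, and 989 and 830 after 0 divisions. Bright genes such as Slurp1 weigh most in such a sum. The list's median difference was 0.27, with 19 of 24 above 0, against 0.008 over all genes. The test called 2 of the 24, both higher, against 0.737% of all genes. Slurp1, a secreted Ly6-family peptide of the skin, had 11.08 and 9.47 after 2 divisions, and 8.01 and 7.19 after 0 divisions (2.68 ± 0.37, adjusted p = 0.0189). Itgb4, the integrin of hemidesmosomes, had 8.11 and 6.98 after 2 divisions, and 5.08 and 5.14 after 0 divisions (2.43 ± 0.33, adjusted p = 0.0189). The basal keratin gene Krt14 had 8.19 and 6.94 after 2 divisions, and 5.62 and 5.55 after 0 divisions, without passing the test (1.98 ± 0.48, adjusted p = 0.115). The part of such cells in the rise of the epithelial genes was not tested. The summed markers of macrophages were 527 and 429 after 2 divisions, and 364 and 416 after 0 divisions, and those of endothelial cells 593 and 660 after 2 divisions, and 489 and 699 after 0 divisions, with 0 calls in either list. Those of 14 neural and glial genes were apart, with 3510 and 3286 after 2 divisions, and 1512 and 2046 after 0 divisions, and 0 of the 14 were called. The median difference of that list was -0.008, with 6 of 14 above 0. Stmn2, at 11.16 and 10.93 after 2 divisions, had its largest difference (2.999) and weighs heavily in the sum. The sums of 7 adipocyte genes were apart the other way, with 1228 and 1029 after 2 divisions, and 1720 and 1473 after 0 divisions. The median difference of that list was 0.14, with 5 of 7 above 0. Lpl, its 1 called gene, was lower, against 0.357% of all genes called lower, and it weighs heavily in the sum. The sums of 12 skeletal muscle genes were 391 and 517 after 2 divisions, and 470 and 1002 after 0 divisions, with 0 calls. The part of these cell types in the results was not tested.

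Fibroblast matrix genes moved in both directions. Of 47 matrix genes 3 were higher and 1 was lower, with a median difference of -0.22 against 0.008 over all genes. Of all genes 0.737% were called higher and 0.357% lower. Without replicate 1 of 2 divisions the median of the list was 0.004 and 0 members were called. The higher ones act in matrix turnover and processing. Mmp3, the protease stromelysin, had 10.77 and 9.81 after 2 divisions, and 8.97 and 6.47 after 0 divisions (2.56 ± 0.44, adjusted p = 0.039). Timp1, an inhibitor of matrix proteases, had 12.30 and 12.37 after 2 divisions, and 11.11 and 11.52 after 0 divisions (1.02 ± 0.17, adjusted p = 0.036). Pcolce2, which enhances procollagen processing, rose by 1.38 ± 0.22 (adjusted p = 0.0309). Mfap5, a protein of elastic microfibrils, was the called fall, with 8.35 and 9.34 after 2 divisions, and 9.99 and 10.85 after 0 divisions (-1.57 ± 0.26, adjusted p = 0.035). Downward gaps between the cohorts were found in 16 of the 47 genes and in 17.2% of all genes, and the collagen genes Col1a1 and Col3a1 were not called, with differences of -0.34 and -0.01.

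Of 29 contractile and TGF-beta response genes 23 had differences below 0 and the median was -0.54. The list had 1 call, which was lower, against 0.357% of all genes called lower. Mylk, the myosin light chain kinase of smooth muscle, had 6.64 and 7.61 after 2 divisions, and 8.50 and 8.89 after 0 divisions (-1.57 ± 0.17, adjusted p = 0.00895). Cnn1, the smooth-muscle calponin, had 4.87 and 8.07 after 2 divisions, and 7.93 and 9.87 after 0 divisions (-2.43 ± 0.47, adjusted p = 0.056). For Cnn1 the arrays of 2 divisions differed from each other by more than the cohort means did, and replicate 2 of 2 divisions lay above replicate 1 of 0 divisions. The same overlap held for Tagln, the actin-binding protein transgelin, with 9.48 and 12.16 after 2 divisions, and 12.06 and 13.22 after 0 divisions (adjusted p = 0.0789). The list's largest difference above 0 was that of Tgfbi, a matrix protein induced by TGF-beta, with 11.03 and 10.31 after 2 divisions, and 9.68 and 7.65 after 0 divisions (2.01 ± 0.40, adjusted p = 0.0647). In the fit to the 6 later arrays 5 members were called, with Tgfbi and Tgfb1 higher and Mylk, Cnn1 and Myl9 lower.

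Of the large falls, C1qtnf3, a secreted protein of the C1q family, had 4.80 and 7.63 after 2 divisions, and 9.01 and 10.43 after 0 divisions (-3.51 ± 0.39, adjusted p = 0.00895). Npr3, the clearance receptor of natriuretic peptides, had 7.57 and 9.35 after 2 divisions, and 10.27 and 11.07 after 0 divisions (-2.21 ± 0.32, adjusted p = 0.0219). Lpl, the lipoprotein lipase of fat and muscle, had 7.27 and 8.53 after 2 divisions, and 9.60 and 9.96 after 0 divisions (-1.88 ± 0.24, adjusted p = 0.0157). In these 3 genes replicate 1 was below replicate 2 in both cohorts. Lpl was the sole call among 7 measured adipocyte markers, against 0.357% of all genes called lower.

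Nexn, the actin-binding protein nexilin, had 6.40 and 7.76 after 2 divisions, and 8.43 and 9.33 after 0 divisions (-1.80 ± 0.19, adjusted p = 0.00859). Htr1b, a serotonin receptor, had 4.98 and 6.96 after 2 divisions, and 7.04 and 8.64 after 0 divisions (-1.87 ± 0.17, adjusted p = 0.00818). Replicate 2 of 2 divisions and replicate 1 of 0 divisions nearly met, and without the block the adjusted p of Htr1b was 0.763. Prss35, a protein of the serine protease family, fell by 1.94 ± 0.21, and Rgs4, a regulator of G-protein signalling, fell by 1.72 ± 0.30. St8sia2, which adds polysialic acid to cell adhesion molecules, fell by 1.68 ± 0.30, and Fbln7, a matrix protein of the fibulin family, fell by 1.66 ± 0.30. Over all 65 falls the cohorts did not overlap in 56, against 17.2% of all genes with a downward gap. The falls were called for this same difference, so the count is a description.

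Of 22 genes of ERK feedback and EGF ligands 3 were called, all higher, and the list's median difference was 0.38. Errfi1, a feedback inhibitor of the EGF receptor, had 11.03 and 10.35 after 2 divisions, and 9.58 and 8.95 after 0 divisions (1.42 ± 0.14, adjusted p = 0.00818). Phlda1 rose by 1.08 ± 0.16 (adjusted p = 0.0237), and Dusp6, a phosphatase that inactivates ERK, rose by 0.94 ± 0.16 (adjusted p = 0.0378). In all 3 the arrays of the cohorts were apart, and 12 of the 22 members had such an upward gap, against 20.2% of all genes. The share of all genes called higher was 0.737%. Among 26 immediate early and AP-1 genes 1 was called: Fosl1, a Fos-family subunit of the transcription factor AP-1, had 7.94 and 7.81 after 2 divisions, and 6.64 and 6.92 after 0 divisions (1.10 ± 0.18, adjusted p = 0.0356).

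Of 29 secreted inflammatory factors 2 were called, both higher, against 0.737% of all genes. Mmp13, a collagenase, had 7.29 and 6.97 after 2 divisions, and 3.60 and 3.86 after 0 divisions (3.40 ± 0.33, adjusted p = 0.00818). Il1rn, the antagonist of the interleukin-1 receptor, had 10.49 and 11.24 after 2 divisions, and 8.74 and 9.51 after 0 divisions (1.74 ± 0.32, adjusted p = 0.0497). The chemokine genes Ccl7 and Ccl2 had differences of 1.62 and 1.61 without passing the test (adjusted p = 0.0639 and 0.0767). Among 27 interferon response genes 0 were called, with a median difference of 0.13. Of these 27, 21 had a difference above 0, against 51.8% of all genes, and 12 had an upward gap between the cohorts, against 20.2%. The largest was Ifit1, with 1.58 ± 0.45 (adjusted p = 0.175).

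Fos and Jun family dimers bind the AP-1 element, and the collagenase gene Mmp13 is a textbook target of them. The promoters of the called genes were searched for this element, TGACTCA or TGAGTCA, which covers both strands, in a window of 250 bases before to 50 bases after the gene start. Of 134 rises 98 had a promoter in RefSeq's table, and 12 of them held the element (12.2%), against 771 of the 14452 promoters of all tested genes (5.33%) and 1 of 46 promoters of falls (2.17%). The search covered 10 motifs and was chosen after the calls were known, and a match in a window is a description of its letters. The other motifs, in rises and in all tested genes, gave 17.3% and 11.7% (NF-kappaB element), 76.5% and 66.2% (KLF element), 14.3% and 11.5% (TATA box). They gave 5.1% and 3.24% (ATF4 composite element), 24.5% and 22.9% (E-box), and 4.08% and 3.63% (ISRE). Lower in rises were the TEAD element (14.3% and 15.3%), CArG box (0% and 1.58%) and E2F element (0% and 0.574%). In falls the KLF element had 76.1%, the TEAD element 21.7% and the E-box 19.6%. The 150 bases before the start are shown for the 2 matrix proteases, for Fbp2 and Il1rn, the other rises with the element that the rule for named genes gave, and for Mylk, the sole fall with it, 5′ to 3′ on the gene's strand, from RefSeq's GRCm38.p6 assembly, with the element in capitals.
Mmp13: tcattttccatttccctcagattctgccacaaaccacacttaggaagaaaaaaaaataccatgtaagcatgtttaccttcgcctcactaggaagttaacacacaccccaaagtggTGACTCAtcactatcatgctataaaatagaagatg
Mmp3: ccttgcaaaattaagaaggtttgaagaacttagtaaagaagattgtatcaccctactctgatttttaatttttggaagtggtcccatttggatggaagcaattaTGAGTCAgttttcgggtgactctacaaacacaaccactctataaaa
Fbp2: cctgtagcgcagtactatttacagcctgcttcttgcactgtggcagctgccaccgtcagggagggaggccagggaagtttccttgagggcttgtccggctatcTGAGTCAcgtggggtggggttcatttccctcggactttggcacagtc
Il1rn: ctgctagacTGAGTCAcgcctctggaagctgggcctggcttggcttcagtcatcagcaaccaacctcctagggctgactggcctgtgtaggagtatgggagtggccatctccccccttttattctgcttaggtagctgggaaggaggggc
Mylk: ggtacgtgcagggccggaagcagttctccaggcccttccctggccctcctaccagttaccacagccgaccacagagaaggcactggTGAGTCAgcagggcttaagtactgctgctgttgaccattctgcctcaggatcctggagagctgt
The stretches lie for Mmp13 at chr9:7272364-7272513 (plus strand), for Mmp3 at chr9:7445672-7445821 (plus strand), for Fbp2 at chr13:62858401-62858550 (minus strand), for Il1rn at chr2:24336710-24336859 (plus strand) and for Mylk at chr16:34784800-34784949 (plus strand).
For Mmp13 and Mmp3 the element began 35 and 46 bases before the start, for Fbp2 and Mylk 47 and 64 bases, and for Il1rn, which has 3 promoters in the table, 141 bases. Mylk, which fell, holds the same element as the rises shown.

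Genes of the p200 family, interferon-inducible DNA sensors that lie outside that list, were named after their values were seen. Ifi202b had 10.17 and 10.44 after 2 divisions, and 7.65 and 8.46 after 0 divisions (2.25 ± 0.22, adjusted p = 0.00818). Ifi204 had 6.27 and 5.18 after 2 divisions, and 3.74 and 3.73 after 0 divisions (1.99 ± 0.25, adjusted p = 0.0158), and Mndal rose by 1.23 ± 0.14 (adjusted p = 0.00895). The family members are close in sequence, so which of them a probe set measures is uncertain.

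Of 23 serine and one-carbon genes, a list that also holds regulators of the stress response, 2 were called, both lower, against 0.357% of all genes. The list's median difference was -0.34, with 17 of 23 below 0. Mthfd2, the mitochondrial folate enzyme, had 7.43 and 7.99 after 2 divisions, and 8.96 and 9.70 after 0 divisions (-1.62 ± 0.25, adjusted p = 0.0282). Aldh1l2, another mitochondrial folate enzyme, had 7.03 and 7.72 after 2 divisions, and 8.80 and 9.01 after 0 divisions (-1.53 ± 0.24, adjusted p = 0.0323). Trib3, a stress-induced pseudokinase, had a difference of -1.79 ± 0.39 without passing the test (adjusted p = 0.0802), and Chac1, which degrades glutathione, one of -1.48 ± 0.39 (adjusted p = 0.146). Cebpb, a transcription factor of the list, had a difference of 0.64 ± 0.12 (adjusted p = 0.0522), and 5 other processing settings called it higher, log2(value + 16) among them, which left 0 members lower. In 11 of the 23 genes both arrays of 2 divisions lay below both of 0 divisions, which was so for 17.2% of all genes.

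By the probe set with the highest mean, 0 members of the cell-cycle lists were called, although the cohorts are named for their divisions. Among 31 mitosis genes 0 were called, 27 had a difference above 0 and the median was 0.13. Mki67, the proliferation antigen, had 9.42 and 9.34 after 2 divisions, and 8.93 and 8.97 after 0 divisions (0.43 ± 0.26, adjusted p = 0.563). Anln, a scaffold of cytokinesis and the largest of the mitosis list, had 10.20 and 10.01 after 2 divisions, and 9.30 and 9.69 after 0 divisions (0.61 ± 0.17, adjusted p = 0.174). The arrays of both genes were apart but the differences were small. The uninduced control lay lower, at 8.22 and 7.25 for Mki67.

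The other lists of growth and division gave 0 calls as well, with medians of 0.08 for 37 DNA replication genes, 0.03 for 16 E2F and pocket protein genes, 0.13 for 11 G1 cyclins and kinases, -0.16 for 7 CDK inhibitors and 0.04 for 20 p53 targets. Ribosome biogenesis (37 genes, median 0.05), glycolysis (17 genes, 0.04) and oxidative phosphorylation (21 genes, -0.04) likewise had 0 calls. Among single members, Ccnd1, the growth-factor-induced cyclin D1, had 13.15 and 13.14 after 2 divisions, and 12.54 and 12.64 after 0 divisions (0.56 ± 0.13, adjusted p = 0.116). Another probe set of Ccnd1 was called higher, with 12.39 and 12.24 after 2 divisions, and 11.54 and 11.64 after 0 divisions (0.72 ± 0.13, adjusted p = 0.04995). Cdkn1c, the CDK inhibitor p57, had 7.21 and 8.10 after 2 divisions, and 9.28 and 8.08 after 0 divisions, so its cohorts overlapped (-1.03 ± 0.50, adjusted p = 0.453). A p that misses the threshold with 2 arrays per cohort does not show that these genes were alike.

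Genes of pluripotency were not called either. Of 30 network genes 0 passed, and their median was -0.04. Nanog, a core pluripotency factor, had 3.36 and 3.43 after 2 divisions, and 3.36 and 3.16 after 0 divisions (0.14 ± 0.15, adjusted p = 0.791). Fut4, an enzyme that can make the surface antigen SSEA-1, had 3.89 and 3.85 after 2 divisions, and 3.86 and 3.82 after 0 divisions. Both genes were near the dim end of the arrays in all groups. Thy1, the fibroblast surface antigen lost in reprogramming, had 10.33 and 10.52 after 2 divisions, and 10.39 and 10.27 after 0 divisions (0.10 ± 0.24, adjusted p = 0.927). Lists of chromatin regulators (34 genes), Hox genes (28), EMT regulators and mesenchymal factors (27), cholesterol synthesis (19) and lysosome and autophagy (20) had 0 calls. Over all 32 lists 22 of 703 measured genes were called, against 1.09% of all genes. The lists were chosen with earlier results of these data known, so this count is a description. With all arrays of the comparison kept, the medians of 6 lists took the opposite sign in at least 1 other processing setting, among them E2F and pocket proteins, ribosome biogenesis, and glutathione and oxidative stress. When single arrays were left out as well the number was 19, with fibroblast matrix, mitosis, pluripotency, glycolysis, p53 targets, CDK inhibitors, cholesterol synthesis and simple keratins among them.

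**Figure D3:**
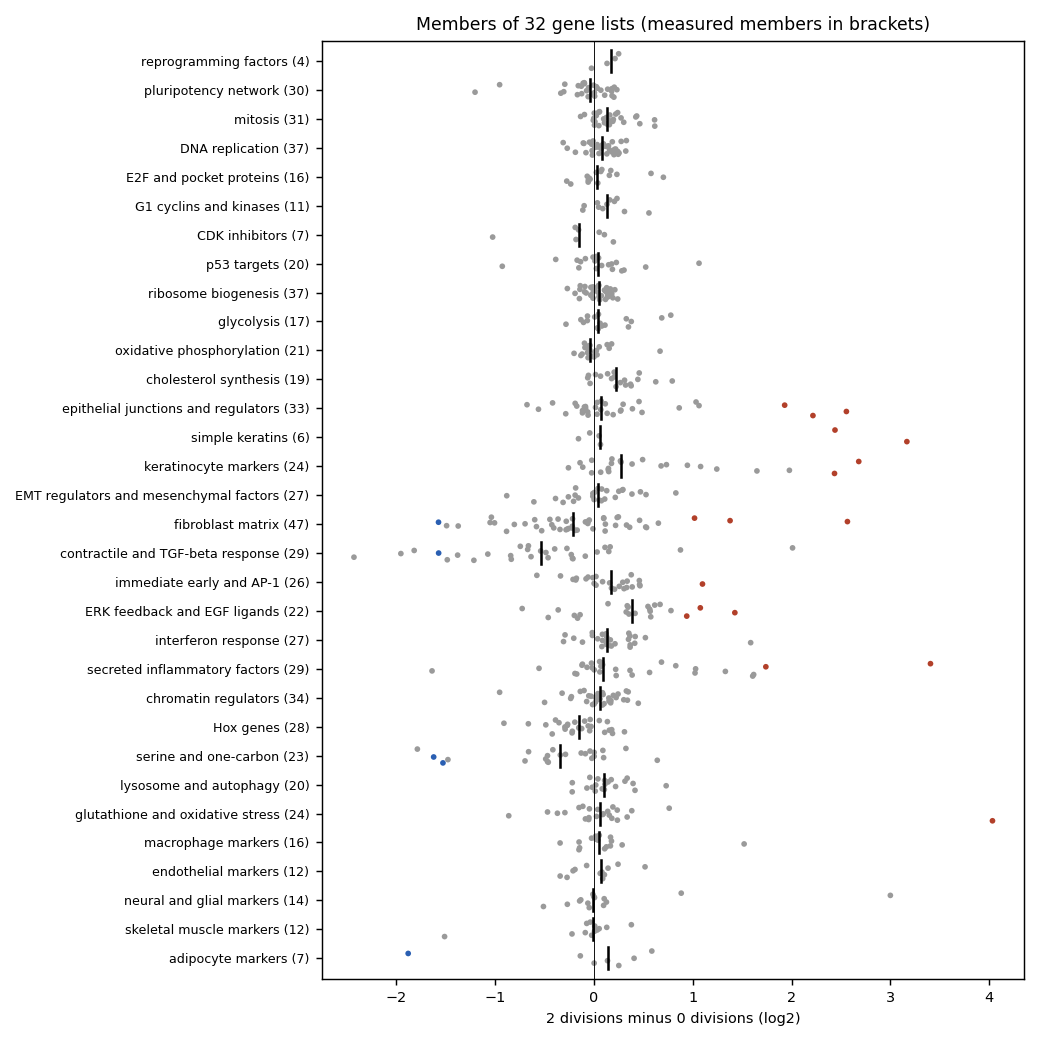
The difference between 2 and 0 divisions (log2, horizontal axis) of each measured member of 32 gene lists, 1 row per list with the number of members in brackets. Red points were called higher, blue points lower and grey points were not called, and black bars mark list medians, which run from -0.54 for the contractile list to 0.38 for the ERK list.

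The single-division cohort was set between the others to see how the change was spread over the steps. The mean of the cohort of 1 division lay between those of 0 and 2 divisions for 133 of the 134 rises and 65 of the 65 falls, against 44.8% of all genes. The genes were chosen for a large difference between 2 and 0 divisions, so the share is a description. The median rise had gone 49.8% of the way at 1 division (quartiles 38.6% and 61.3%), and the median fall 46.0% (quartiles 35.6% and 56.2%). Single genes differed. Mmp13 had 3.60 and 3.86 after 0 divisions, 4.29 and 4.33 after 1 and 7.29 and 6.97 after 2, so most of its rise lay in the second step. Myh2, the myosin heavy chain of fast muscle fibres, had 6.08 and 6.66 after 0 divisions, 3.88 and 4.90 after 1 and 3.38 and 3.73 after 2, so most of its fall lay in the first step.

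Neither step passed the test on its own. Between 1 and 0 divisions limma called 0 probe sets, with 1877 at an unadjusted p under 0.05 and a lowest adjusted p of 0.107. Between 2 and 1 divisions it called 0, again with 1877 at an unadjusted p under 0.05, and the lowest adjusted p was 0.156. A departure of the middle cohort from halfway was called for 0 probe sets, with 902 at an unadjusted p under 0.05.

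The cohort of 3 or more divisions and the starved control share no array with the comparison of 2 and 0 divisions, although they differ in doxycycline and serum as well as in divisions and enter the same estimate of the spread. In that comparison 19.8% of all genes were called higher and 16.8% lower. Of the 134 genes that rose after 2 divisions, 106 were higher there (79.1% of these rises and 2.94% of the genes higher there), 2 were lower and 26 were not called. Of the 65 genes that fell, 56 were lower there (86.2% of these falls and 1.84% of the genes lower there), 2 were higher and 7 were not called. Cdh1 had 9.19 and 9.42 after 3 or more divisions, against 3.22 and 3.52 in the control. C1qtnf3 had 4.47 and 6.24 after 3 or more divisions, against 10.13 and 11.62 in the control.

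**Figure D4:**
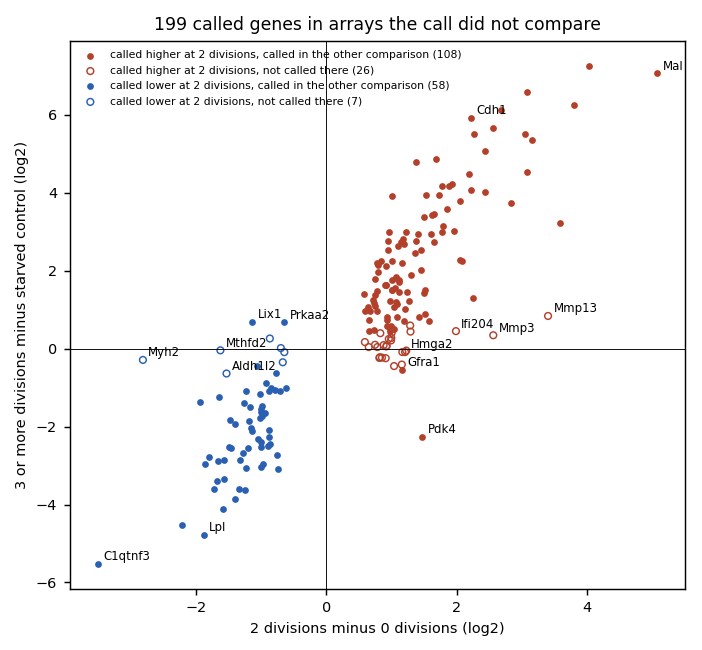
For the 199 called genes, the difference between 3 or more divisions and the starved control (log2, vertical axis) against the difference between 2 and 0 divisions (log2, horizontal axis), 1 point per gene. Filled points were called in both comparisons. Open points were not called in the second one (26 of the 134 rises in red, 7 of the 65 falls in blue). The filled points in the quadrants of opposite sign are Pdk4, Gfra1, Lix1 and Prkaa2, and open points such as Hmga2 lie there too.

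The genes outside that pattern were named after their values were seen. Mmp13 had 5.38 and 4.92 after 3 or more divisions, against 3.71 and 4.92 in the control, so its arrays touched there and its highest values in the series were those of 2 divisions. Mmp3 likewise had 8.29 and 6.82 after 3 or more divisions, against 8.81 and 5.62 in the control. Hmga2, a chromatin architectural protein of embryonic cells, had 12.00 and 11.77 after 2 divisions, and 10.73 and 10.61 after 0 divisions (1.21 ± 0.13, adjusted p = 0.00895). It had 10.91 and 10.58 after 3 or more divisions, against 10.79 and 10.87 in the control, and these overlapped.

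Pdk4, a kinase that inhibits pyruvate dehydrogenase, was of opposite sign. It had 8.09 and 9.10 after 2 divisions, and 7.15 and 7.09 after 0 divisions (1.48 ± 0.24, adjusted p = 0.0361). In the earlier set it had 5.44 and 5.47 after 3 or more divisions, against 7.42 and 8.02 in the control. Gfra1, a co-receptor of the neurotrophic factor GDNF, rose by 1.16 ± 0.16 after 2 divisions and differed by -0.55 between 3 or more divisions and the control. Among the falls, Prkaa2, a catalytic subunit of AMP-activated kinase, and Lix1 were higher after 3 or more divisions than in the control, by 0.68 and 0.69. Mthfd2, with 9.50 and 9.87 after 3 or more divisions against 9.46 and 9.99 in the control, was not called there.

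**Figure D5:**
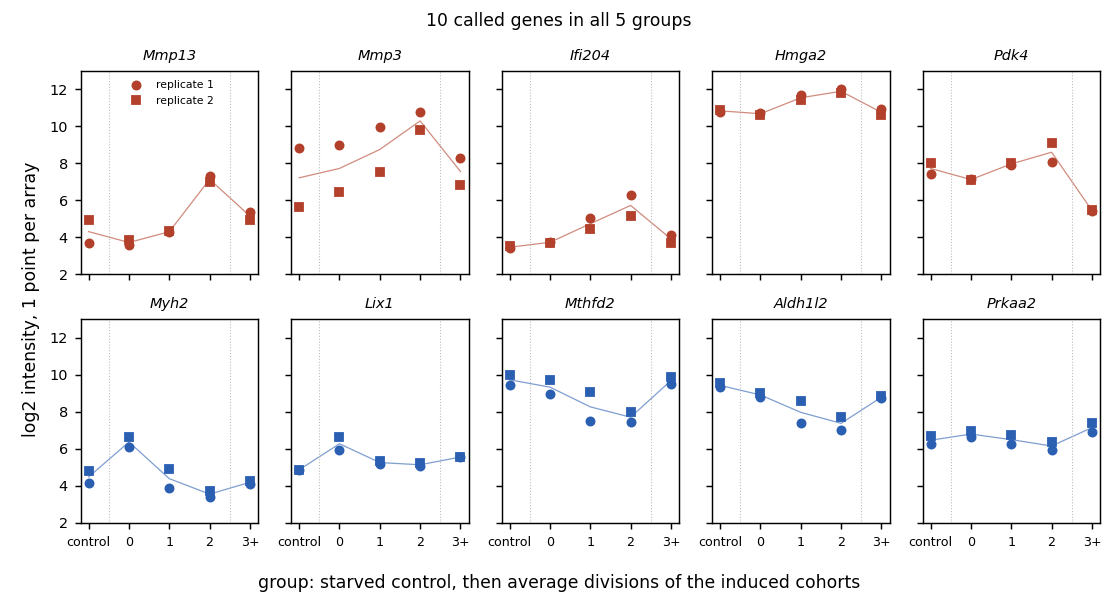
Log2 intensity (vertical axis, the same in all panels) of 10 called genes in the 5 groups (horizontal axis), 1 point per array, with replicate 1 as circles and replicate 2 as squares and lines through the group means; dotted lines part the earlier set (control and 3 or more divisions) from the later one. Mmp13 peaks at 7.29 and 6.97 after 2 divisions and Myh2 at 6.08 and 6.66 after 0 divisions.

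Probe sets of one gene did not give opposite calls. The 342 called probe sets belonged to 270 genes, 181 of which had several probe sets, and 54 had 2 or more called. For 150 of the 181 genes all probe sets had a difference of the same sign. In 71 of the 270 genes a probe set other than the one with the highest mean was the called one, and these genes are not among the 199. Among list members these were Ccnd1, Krt6a (2.79, adjusted p = 0.019) and Cxcl1 (0.67, adjusted p = 0.0496), which were higher, and Acta2 (-2.17, adjusted p = 0.0116), Tpm1 (-1.04, adjusted p = 0.0361) and Cdh2 (-0.83, adjusted p = 0.0412), which were lower. For Dsp 3 probe sets gave 2.55, 2.59 and 1.16, and the last 2 were not called. Krt8 had 2 further probe sets at 2.44 and 1.77 with adjusted p of 0.0557 and 0.0704. Among the 10 largest rises and 10 largest falls, the other probe sets of Lgr6, St8sia2 and Htr1b had smaller differences. They gave 1.25, -0.56 and -0.37, with adjusted p of 0.156, 0.291 and 0.305. The other probe sets of Mal, Rgs4, Lpl and Npr3 were called in the same direction as the ones named.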

How the data were processed

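Total RNA of 10 samples was hybridised to Affymetrix mouse arrays. The authors deposited 1 table of linear intensity per probe set. The submitters' processing notes name RMA for the 4 earlier arrays and no tool for the later 6. The table holds 45101 probe sets with values from 5.7 to 26572. Left out were 64 control probe sets, 932 with several genes and 9160 not listed in the platform's gene table. Of the 34945 with 1 gene, 34741 matched RefSeq by gene ID, and 0 symbols changed. They stand for 18193 genes, 9010 with several probe sets.

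The deposited intensities were taken to log2 and quantile-normalized over the 10 arrays. limma 3.58.1 in R 4.3.3 (lmFit, eBayes) was fitted with 5 groups and the replicate number as a block, with 4 residual degrees of freedom, two-sided, with Benjamini-Hochberg adjustment. The number of arrays limits the precision. The block was used because the comparison is defined by replicate pairs. In the data, arrays of one number departed from their groups together, with Pearson's r of 0.433 to 0.846 over the 10 group pairs, and over the 6 later arrays the component with 53.7% of the variance parted the replicate numbers.

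The genes named are the 4 factors, Nanog, Cdh1, Epcam, Thy1, Fut4 and Mki67, the 10 largest rises and 10 largest falls among called genes with arrays apart, and from each list the 4 largest called members at most, or its largest member if it had no call. Other genes were chosen after their values were seen. The 32 lists hold 740 genes, 703 of them measured. The arrays compared, the lists and the tests were chosen with earlier results of these data known. Lists are described by counts and medians without a set test. The fit was tested on simulated data. Promoters came from RefSeq's GRCm38.p6 table. Alternatives changed the block, the arrays in the fit, the scaling, the floor or pseudocount, the filter on dim probe sets and the choice of probe set per gene, and left out each array.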

Additional observations from a re-analysis of the deposited data

How the results depend on the processing

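Without the replicate block, 16 probe sets were called between 2 and 0 divisions (15 higher, 1 lower, 15 at least 2-fold), against 342 (205 higher, 137 lower, 209 at least 2-fold). A floor of 16 gave 4 (1 higher, 3 lower, 0 at least 2-fold), and log2(value + 16) gave 198 (118, 80 and 78). Testing 1 probe set per gene gave 205 (136, 69 and 124) and the mean of a gene's probe sets 185 (117, 68 and 98), with fewer features tested. Leaving out each array gave 0 to 408 calls (0 to 215 higher, 0 to 193 lower, 0 to 358 at least 2-fold), from fewer arrays. Called list members numbered 22, against 3 without the block, 39 from the 4 compared arrays, 0 with the floor, 12 with log2(value + 16) and 0 to 34 without each array. The slope over 0, 1 and 2 divisions in the fit to 6 arrays, which by construction is the difference of 2 and 0 divisions divided by 2, had the same 263 calls as that difference, against 1 without the block, 0 with the floor, 0 with log2(value + 16), 103 above the median level and 169 by the mean of probe sets. The cause of the losses under the block, the floor and the pseudocount was not tested. The deposited values, median centring, the filter on dim probe sets and the fits to 6 and 4 arrays gave 263 to 401 calls, within 1.5 times, but the 6-array fit shared 191 of its 263 calls with the 342, and 116 of its 171 genes with the 199. The departure from halfway and calls of opposite sign within a gene stayed at 0 in every setting run. Of the 67 named genes 34 kept their side of the threshold without the block and 33 lost the call. Of the 38 called ones 0 changed direction in any setting run. Of the 29 others 6 did: without single arrays, Pou5f1 ranged from -0.155 to 0.58, Myc from -0.223 to 0.485, Klf4 from -0.253 to 0.2, Nanog from -0.067 to 0.342, Thy1 from -0.008 to 0.203 and Fut4 from -0.034 to 0.085, and Klf4 was 0.019 with median centring. The alternative for a table already on the log2 scale was not run, since the values are linear. Most calls thus rest on 2 pairs, and dim genes have no known background.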

Other observations

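Probe sets outside the test, with several genes or none in the platform's table, held changes too. Of 10092 such probe sets 52 were called between 2 and 0 divisions (0.515%), 35 higher and 17 lower, in a limma fit to all probe sets with the same block. They are not named here.

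Metallothioneins and galectins, described after their values were seen, were among the rises. Mt2, which binds zinc and copper, had 11.36 and 11.17 after 2 divisions, and 10.16 and 9.94 after 0 divisions (1.22 ± 0.16, adjusted p = 0.0179), and Mt1 rose by 0.92 ± 0.13 (adjusted p = 0.0189). Lgals3, a secreted galectin, had 13.07 and 12.15 after 2 divisions, and 11.71 and 10.80 after 0 divisions (1.36 ± 0.18, adjusted p = 0.0173), and Lgals7, a galectin of stratified epithelia, rose by 1.79 ± 0.25 (adjusted p = 0.019). In each of these 4 genes the arrays of the cohorts were apart.

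Cd24a, a surface sialoglycoprotein of epithelial and progenitor cells, had 11.55 and 11.24 after 2 divisions, and 8.79 and 9.47 after 0 divisions (2.26 ± 0.27, adjusted p = 0.0119). Genes of cytokine signalling included Socs3, a feedback inhibitor of JAK kinases, with 10.16 and 10.31 after 2 divisions, and 9.25 and 8.89 after 0 divisions (1.16 ± 0.21, adjusted p = 0.0458), and Il6ra, the interleukin-6 receptor, which rose by 1.46 ± 0.23 (adjusted p = 0.0314). Among the falls outside the named genes were the collagen prolyl hydroxylase P4ha1 (1.99-fold lower, adjusted p = 0.0136) and the adhesion molecule Alcam, with 9.24 and 10.02 after 2 divisions, and 10.81 and 11.24 after 0 divisions (-1.40 ± 0.15, adjusted p = 0.00895).

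Stmn2, a neuronal regulator of microtubules and the largest change among 14 neural and glial markers, had 11.16 and 10.93 after 2 divisions, and 6.82 and 9.26 after 0 divisions, without passing the test (2.999 ± 0.67, adjusted p = 0.0897). Its replicates of 0 divisions differed by more than those of 2 divisions.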
